A study of Caenorhabditis elegans with 11 samples.

Results

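The genes described here are the nuclear hormone receptor genes of Caenorhabditis elegans that carry the name nhr and a number. They were chosen by that name alone, with nhr-57 set aside, which gave 276 of the 42048 genes in the deposited counts. Nuclear hormone receptors are transcription factors that hold a zinc-finger DNA-binding domain and a ligand-binding domain, through which small lipid-soluble molecules can set their activity. In nematodes the family expanded greatly from an ancestor related to the vertebrate receptor HNF4, many copies lie side by side on chromosome V, and most have no known ligand. The better known members in worms control fat use, the response to food and toxins, moulting and development.

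RNA was sequenced from whole adult worms in 5 groups. All worms were kept at 16 °C on their bacteria from the embryo onward, and each library came from a pool of about 150 adults, called a biological replicate in the labels. The bacteria were Escherichia coli K12, which produces indole, and K12tnaA (here tnaA), which cannot because its tryptophanase gene is deleted. Wild-type N2 worms on K12 gave 3 early and 2 late libraries, N2 worms on tnaA gave 2 early and 2 late libraries, and ahr-1(ia3) mutants on K12 gave 2 late libraries. The ia3 allele is a loss-of-function allele of ahr-1, the worm aryl hydrocarbon receptor. The series holds no ahr-1 library from early worms or from worms on tnaA. Replicate numbers run to 3, and early K12 alone holds all of them. Late means 12 days in the labels. For early the labels say 3 days, but the design text describes 2-day adults. Worms of different ages, strains and diets hold different mixtures of cells, and in whole animals fewer cells of a type and less RNA per cell cannot be told apart.

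The libraries held 8310145 to 15307891 gene reads. Levels are given in CPM, the count per 1000000 reads after TMM scaling, and 1 read was worth 0.0572 to 0.103 CPM. Reads of ahr-1, the gene mutated in 1 group, numbered 19 and 14 in the mutants against 56 and 35 in late N2 on K12. The summed level of 12 germline and oocyte markers was 12640 to 13570 CPM early, 6927 to 7321 CPM in late N2 on K12, 5150 to 5423 CPM in late N2 on tnaA and 4821 to 5790 CPM in late ahr-1. Neuron markers summed to 333 to 350 CPM early and to 548 to 656 CPM late, intestine markers to 2762 to 3604 CPM early and 671 to 984 CPM late, and muscle markers to 3756 to 4533 CPM early and 301 to 476 CPM late. Among the early libraries, K12 replicate 3 and tnaA replicate 2 stood apart by sperm markers, at 82.1 and 88.1 CPM against 23.9 to 37.6 CPM. Sperm markers summed to 40.65 to 53.2 CPM in late N2 and to 74.2 and 80.6 CPM in late ahr-1.

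Of the 276 nhr genes, 196 passed the filter on low counts and were tested, 80 did not pass, and 4 (nhr-233, nhr-248, nhr-259 and nhr-282) had 0 reads in every library. Between 208 and 224 members had a read in an early library and between 241 and 259 in a late one. Tested members were read at a median level of 6.03 CPM over all libraries, against 12.6 CPM over all 15133 genes tested, and 45 members had at least 100 reads in every library. In the Ensembl 115 annotation (assembly WBcel235), 265 members were found, all protein-coding, with 163 on chromosome V, 33 on IV, 23 each on I and X, 15 on II and 8 on III. Of the 11 that were not found, 9 are pseudogenes in RefSeq. There were 42 runs of nhr genes that neighbour each other, which held 132 members, and the longest run held 9. Exons of 64 members overlap an exon of another gene, and since no strand setting of the counting is known, reads of both genes may be mixed for these members.

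Per kb of exon, nhr-49 was the most abundant member with a known exon length in all 5 groups. It codes for an HNF4-like receptor that drives fat burning and desaturation. Its level was 59.4 CPM per kb (SD 1.55, n = 3) in early K12, 58.9 (SD 0.0494, n = 2) in early tnaA, 87.5 (SD 0.148, n = 2) in late K12, 106 (SD 4.17, n = 2) in late tnaA and 86.5 (SD 3.42, n = 2) in late ahr-1. In early K12 it was followed by nhr-114, nhr-27, nhr-17 and nhr-86, at 40.3, 37.9, 36.5 and 29.1 CPM per kb. In late tnaA the next were nhr-154, nhr-17, nhr-3 and nhr-27, at 64.8, 60.9, 46.6 and 45.3 CPM per kb. The order therefore changed with age below the first place: nhr-154 and nhr-3 were not among the first 12 in early worms, and nhr-114 and nhr-68 were not among the first 12 in any late group.

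The family as a whole took a larger part of the transcriptome in late worms, and its sum was highest in late worms on tnaA. The 276 members summed to 1810 to 1917 CPM in the 5 early libraries. The sums were 2637 and 2722 CPM in late N2 on K12, 3297 and 3313 CPM in late N2 on tnaA, and 2676 and 2522 CPM in late ahr-1. The late tnaA libraries lay above all others, while the late K12 and late ahr-1 libraries overlapped. As a share of gene reads without TMM scaling, the family took 0.153 to 0.162% early, 0.301 and 0.310% in late K12, then 0.381 and 0.387% in late tnaA, and 0.309 and 0.288% in late ahr-1. By group mean, late tnaA was the highest of the 5 groups for 122 of the 196 tested members, late ahr-1 for 33, early tnaA for 18, early K12 for 15 and late K12 for 8. These counts have no share over all genes beside them, so nothing particular to the family is read from them.

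The comparison of late N2 on K12 with late N2 on tnaA asks how indole-making bacteria bear on old worms. No nhr gene was called higher on K12 and 26 were called lower, by edgeR's quasi-likelihood test at an adjusted p under 0.05. Of all genes tested, 5.85% were called higher on K12 and 4.27% lower, and of the tested members 13.3% were lower. DESeq2 called 0 higher and 13 lower, from 54 members with an adjusted p, and at an unadjusted p under 0.05 edgeR had 1 member higher and 57 lower. The median log2 fold change was -0.26 over the tested members and -0.06 over all genes, and 174 of 196 members were negative, or 88.8%, against 56.7% of all genes. For 119 members (60.7%) both K12 libraries lay below both tnaA libraries, against 32.8% of all genes, and for 5 members (2.55%) they lay above, against 24.9%. With every gene of at least 1 read in the test, 77.6% of 272 members and 53.1% of all genes were negative. The 12 germline and oocyte markers were all called higher on K12, with a median log2 fold change of 0.41. Neuron markers summed to 552 and 579 CPM in late K12 against 629 and 656 CPM in late tnaA, with 1 of 10 called lower and a median of -0.20. Intestine markers summed to 672 and 835 CPM against 971 and 984 CPM, with 1 of 9 called lower and a median of -0.17. Neither pair of sums overlapped, and the part of all these markers in the lower nhr levels was not tested.

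The count of calls moved with the libraries in the test more than the share of negative members did. Without late tnaA replicate 3, which had the fewest gene reads, 3 members were called lower, without late K12 replicate 1 there were 4, without late tnaA replicate 2 there were 8, and without late K12 replicate 3 there were 12. Leaving out each of the 11 libraries in turn kept the share of negative members between 79.5 and 89.3%, against 53.0 to 56.9% of all genes, and the members' median between -0.31 and -0.25. The calls of nhr-155, nhr-136 and nhr-137 held without each of the 11 libraries, and every other call of the 26 was lost without at least 1 library.

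**Figure D1:**
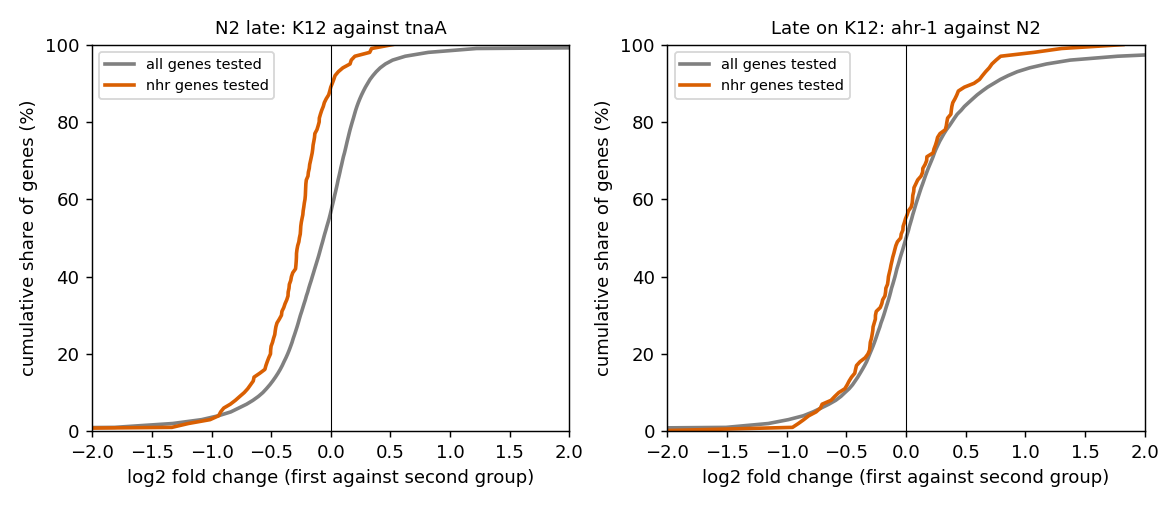
Cumulative share of genes (y axis, %) by log2 fold change (x axis, drawn from -2 to 2) for late N2 on K12 against tnaA (left) and for the late mutant against late N2 (right), with the tested nhr genes in orange and all genes tested in grey. In the left panel the nhr curve lies left of the grey curve through the middle, with medians of -0.26 and -0.06, while in the right panel the curves lie close, with medians of -0.05 and 0.

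The genes nhr-155 and nhr-136 are shown singly because they stood out in late K12 against tnaA, so their difference there is a description of why they were chosen. The first, nhr-155, lies on chromosome V in the Ensembl annotation. It had 0 reads in all 5 early libraries, which allows up to 0.0804 CPM in early K12 and 0.119 CPM in early tnaA at 3 counts over the group. It had 5 and 3 reads in late K12, 122 and 82 reads in late tnaA, and 2 and 1 reads in late ahr-1. Late worms on tnaA were therefore the only group with more than a few reads. The normalised level was 0.234 ± 0.0738 CPM (SD, n = 2) in late K12 and 7.82 ± 0.885 CPM (SD, n = 2) in late tnaA, a log2 fold change of -4.999 ± 0.46 (SE, adjusted p = 0.0010), and it stayed between -5.35 and -4.72 without each library in turn. DESeq2 gave nhr-155 no adjusted p in this comparison, and the authors' deposited results for it do not list the gene.

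With age, nhr-155 rose on K12 (adjusted p = 0.00378) and on tnaA (adjusted p = 1.03e-06). Its late level was 2.93 times that of 3 counts over the early group on K12, and 64.1 times on tnaA. These folds leave out the counting error of the late reads. The 95% counting intervals were 0.1015 to 0.4634 CPM in late K12 and 6.63 to 8.77 CPM in late tnaA. For the early groups they reached 0.0988 CPM on K12 and 0.147 CPM on tnaA. In late ahr-1 the ratio to late N2 on K12, from 3 against 8 reads, was 0.50 with a 95% counting interval of 0.0854 to 2.08, so no difference was detectable at this depth (adjusted p = 0.458). Its annotated neighbours on the same strand share no exon with it. C14C6.3 had 0 reads early, 5 and 3 reads in late K12 and 29 and 13 in late tnaA, and was also called lower on K12 (log2 fold change -2.67 ± 0.74, adjusted p = 0.0468). C14C6.5 went the other way, with 43 and 39 reads in late K12 and 6 and 8 in late tnaA (log2 fold change 2.17 ± 0.48, adjusted p = 0.0168). The 2 neighbours thus differed in opposite directions, and nhr-155 had that of C14C6.3.

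The second, nhr-136, also on chromosome V, was read in every library. Its levels were 4.50, 4.01 and 3.81 CPM in early K12, 5.74 and 3.59 CPM in early tnaA, 12.3 and 11.9 CPM in late K12, 31.9 and 28.6 CPM in late tnaA, and 12.0 and 9.53 CPM in late ahr-1. The early groups overlapped, all late libraries lay above all early ones, and the late tnaA libraries lay above all others. The log2 fold change was -1.33 ± 0.15 for late K12 against late tnaA (adjusted p = 0.00107), 1.56 ± 0.17 with age on K12 (adjusted p = 2.21e-06) and 2.70 ± 0.18 with age on tnaA (adjusted p = 1.35e-08). Late ahr-1 and late N2 on K12 differed by -0.17 ± 0.17, which was not called (adjusted p = 0.493). The difference between both ageing changes was -1.14 ± 0.26 (adjusted p = 0.0478), and this call was lost when any of 7 libraries was left out. Exons of nhr-136 overlap those of C13C4.4 (lhpp-1) on the opposite strand by 268 bases. Reads of C13C4.4 were also lower on K12 than on tnaA in late worms, by -0.77 ± 0.13 (adjusted p = 0.00718), and higher with age by 1.38 and 2.14 on K12 and tnaA, so for nhr-136 the reads of both genes may be mixed.

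**Figure D2:**
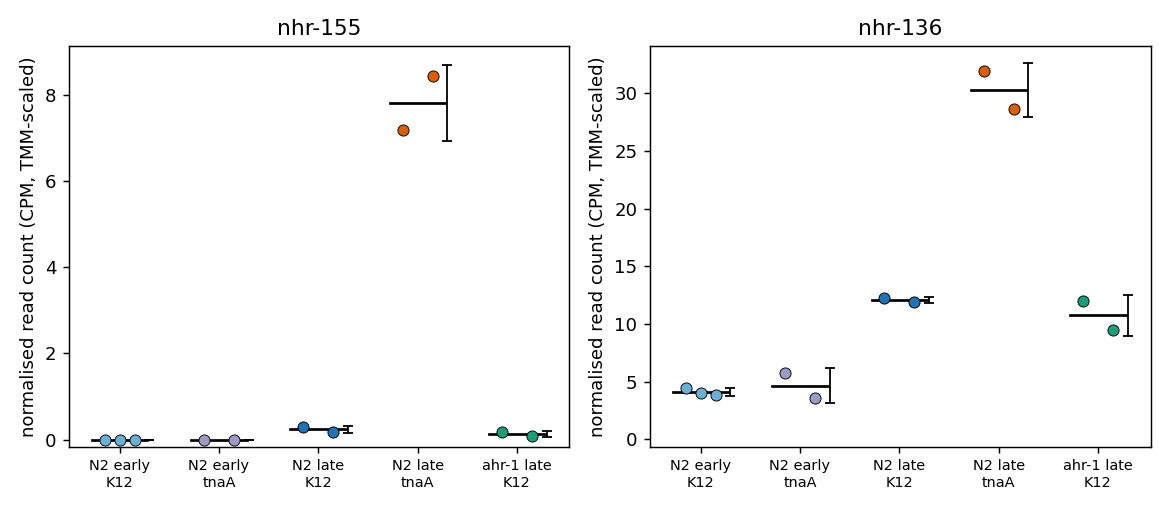
Normalised read count (y axis, CPM after TMM scaling) of nhr-155 (left) and nhr-136 (right) in each library of the 5 groups (x axis), where points are libraries, lines group means and bars the SD. The late tnaA libraries are the highest for both genes, at 7.19 and 8.44 CPM for nhr-155 and 31.9 and 28.6 CPM for nhr-136.

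Among the other 24 members called lower on K12, nhr-137 had the smallest p. This gene on chromosome X was read at 13.3, 14.4 and 14.5 CPM in early K12, 13.2 and 13.9 in early tnaA, 19.4 and 20.3 in late K12, then 41.8 and 38.4 in late tnaA, and 14.6 and 15.1 in late ahr-1. Early and late ahr-1 libraries were at nearly the same level, late K12 lay above them, and late tnaA lay above all. Its log2 fold change in late K12 against tnaA was -1.02 ± 0.09 (adjusted p = 1.67e-04), its ageing change 0.50 ± 0.09 on K12 and 1.56 ± 0.09 on tnaA, and its difference in late ahr-1 against late N2 -0.42 ± 0.10 (adjusted p = 0.00789).

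The adjacent genes nhr-129 and nhr-168 on chromosome V were both lower on K12. For nhr-129 the levels were 1.86 to 3.29 CPM in the early libraries, 12.5 and 12.3 in late K12, then 24.1 and 23.1 in late tnaA, and 16.3 and 16.0 in late ahr-1. For nhr-168 they were 3.58 to 4.98 CPM early, 15.2 and 15.4 in late K12, then 28.4 and 27.4 in late tnaA, and 16.4 and 13.7 in late ahr-1. All late libraries were above the early ones for both genes, and late tnaA was highest. The log2 fold changes in late K12 against tnaA were -0.92 ± 0.14 (adjusted p = 0.00624) and -0.87 ± 0.13 (adjusted p = 0.00606), and both calls were lost without late K12 replicate 1 or late tnaA replicate 3. In the run of 7 neighbours that ends with nhr-136, nhr-154 was also lower on K12, at 63.9 and 67.8 CPM against 104.7 and 93.8 CPM in tnaA (log2 fold change -0.60 ± 0.11, adjusted p = 0.00868). The others of that run were not called, with log2 fold changes of -0.54 for nhr-153, -0.19 for nhr-209, -0.97 for nhr-207, -0.83 for nhr-208 and -0.69 for nhr-206.

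Of abundant members, nhr-49 was read at 186.5 and 187 CPM in late K12 and 231.9 and 219.3 CPM in late tnaA, against 122.9 to 128.6 CPM early. The difference was small beside its level, at -0.27 ± 0.05 on the log2 scale (adjusted p = 0.0110), though larger than the spread between libraries. The receptor genes nhr-17 and nhr-21 differed by -0.52 ± 0.10 (adjusted p = 0.0121) and -0.64 ± 0.13 (adjusted p = 0.0133). For nhr-17 the late levels were 60.4 and 74.7 CPM on K12, 95.3 and 99.2 on tnaA, and 56.4 and 44.97 in ahr-1, against 50.4 to 61.2 CPM early. It was thus above the early range in late tnaA, and in 1 of the late K12 libraries.

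Over the 26 members, 12 lie on chromosome V and 7 on X, which hold 123 and 18 of the tested members. The median level of tested members was 3.92 CPM on V and 21.2 CPM on X, and nothing is read from the chromosome counts. With age, 24 of the 26 members were called higher on tnaA and 22 on both bacteria, and 2 (nhr-105 and nhr-101) were called lower on K12. The 26 were picked for high levels in the same late tnaA libraries that enter the ageing change on tnaA, so these counts are a description from which nothing is read. Over the family 62.2% rose on tnaA and 54.6% on K12, and over all genes 35.6 and 32.9%. Late ahr-1 on K12, which was compared with the same late K12 libraries, had 6 of the 26 called lower (nhr-137, nhr-17, nhr-21, nhr-3, nhr-25 and nhr-46) and 4 called higher (nhr-47, nhr-228, nhr-48 and nhr-101). In that comparison 6.12% of the family and 12.2% of all genes were lower, and 8.16 and 12.3% higher, and because the late K12 libraries are shared nothing is read from the counts. Side by side, late K12 against tnaA and ahr-1 against late K12 were -0.36 and -0.63 for nhr-3, -0.43 and -0.52 for nhr-25, -0.42 and 0.38 for nhr-47, and -0.33 and 0.34 for nhr-228. For the last 2 genes both the tnaA diet and the mutant thus had higher levels than late K12, whereas for the others the mutant had lower ones.

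**Figure D3:**
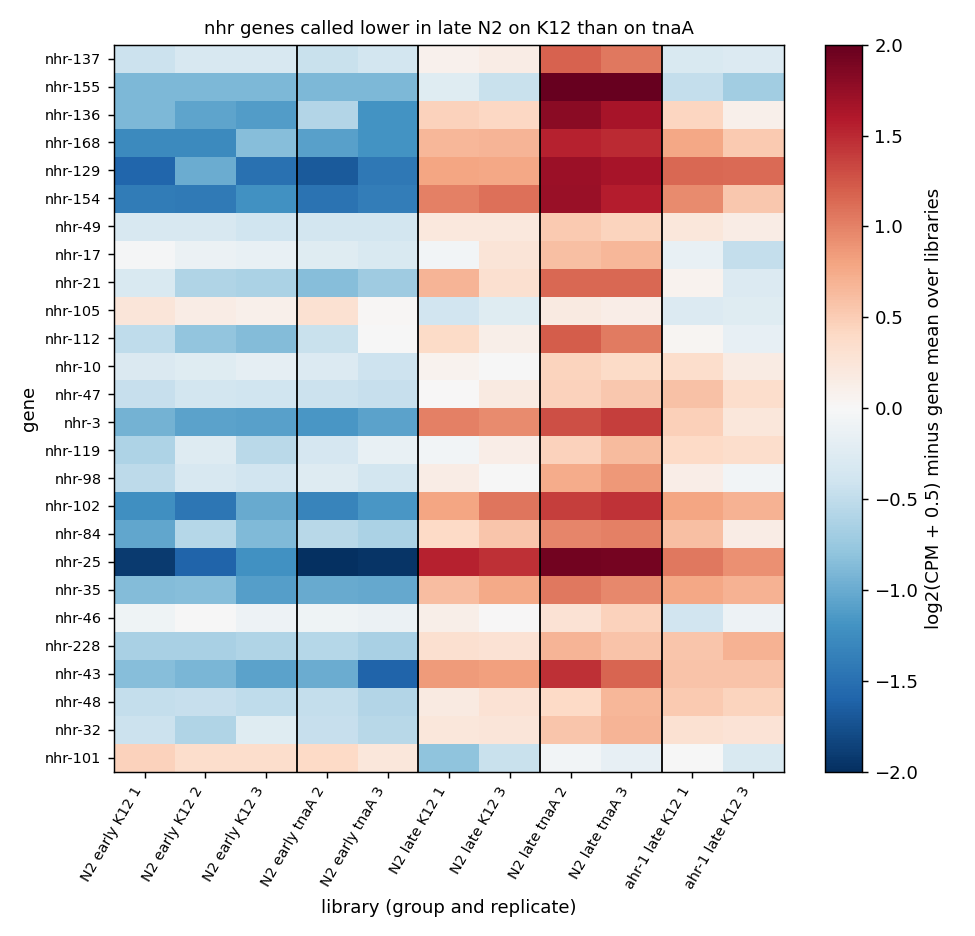
Levels of the 26 nhr genes called lower in late N2 on K12 than on tnaA (rows, by p) in the 11 libraries (columns), as log2(CPM + 0.5) minus the gene's mean over libraries, with colours limited to -2 and 2, a range that nhr-155 exceeds in late tnaA. The late tnaA columns are the reddest for most genes, early columns are blue for most, and nhr-105 and nhr-101 are the 2 genes whose late K12 libraries lie below their early ones.

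More nhr genes were called between ages than between bacteria. On K12, 107 of the 196 tested members rose from early to late and 21 fell, or 54.6 and 10.7%, while 32.9% of all genes rose and 36.7% fell. On tnaA, 122 members rose and 13 fell, or 62.2 and 6.63%, against 35.6 and 36.3% of all genes. The median log2 fold change of the members was 0.57 on K12 and 0.91 on tnaA, against -0.04 and 0.02 over all genes. Some members, such as nhr-155 with 0 early reads, passed the filter through late libraries alone and could hardly fall. Of the tested members 26% were negative on K12 and 18.9% on tnaA, against 51.5 and 49.4% of all genes. With every gene of at least 1 read in the test, 23.2 and 20.2% of 272 members were negative, against 37.9 and 46.7% of all genes. Changes of at least 2-fold with a call were found for 79 members up and 9 down on K12, and 91 up and 5 down on tnaA. These were 40.3, 4.59, 46.4 and 2.55% of the members tested, against 21, 13.6, 25.3 and 14.8% of all genes. Both ageing comparisons use separate libraries: 103 members rose in both, 96.3% of those on K12 and 84.4% of those on tnaA, 12 fell in both, 57.1 and 92.3%, and 0 were called in opposite directions. Over all genes the rises shared by both were 91.6% of those on K12 and 84.4% of those on tnaA, and the shared falls 89.5 and 90.4%. The members' shared rises were thus near the share over all genes. The change was more upward on tnaA for 78.1% of the members, against 53.3% of all genes.

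Scaling bears on these counts, since early libraries had TMM factors of 0.820 to 0.877 and late libraries of 1.14 to 1.17. With library size alone the median of all genes moved by 0.418 on K12 and 0.473 on tnaA, and 144 members rose and 9 fell on K12, so that 94.1% of the calls were rises in place of 83.6%. The members' median minus the median of all genes was 0.607 on K12 under both scalings, and 0.888 and 0.887 on tnaA. Germline and oocyte markers fell with age in 12 of 12 genes on both bacteria, intestine markers in 9 of 9, and neuron markers rose in 8 and 9 of 10. The part of these shifts in the nhr changes was not tested.

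**Figure D4:**
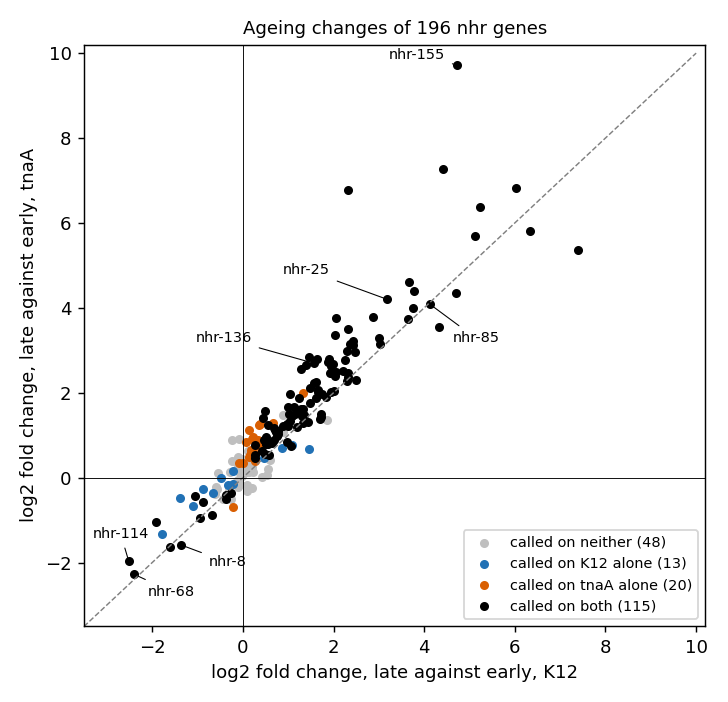
Log2 fold change from early to late on K12 (x axis) and on tnaA (y axis) for the 196 tested nhr genes, coloured by the test's calls, with the dashed line marking equal changes. The 115 genes called on both lie in the upper right (103) or lower left (12), and nhr-155 lies farthest above the line; values of genes with 0 early reads, nhr-155 among them, depend on the prior count and are no measured fold.

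Of the 4 receptor genes of moulting and the epidermis, 3 rose and 1 fell with age on each of the bacteria, and nhr-25 and nhr-85 changed most. Over the family 54.6% rose on K12 and 62.2% on tnaA, and over all genes 32.9 and 35.6%. Nothing particular to these 4 genes is read from the counts. NHR-25, the worm relative of Ftz-F1 and SF-1, acts in moulting, epidermal cells and the gonad. Its gene was read at 3.08, 3.93 and 5.29 CPM in early K12, 2.56 and 2.94 in early tnaA, 38.8 and 36.4 in late K12, then 50.9 and 50.1 in late tnaA, and 27.5 and 24.96 in late ahr-1. The 3 late groups did not overlap each other or the early libraries. It rose by 3.19 ± 0.13 on K12 (adjusted p = 2.35e-10) and 4.20 ± 0.17 on tnaA (adjusted p = 1.35e-10) on the log2 scale.

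The gene nhr-85, related to fly E75 and vertebrate Rev-Erb, was at 0.961 to 1.47 CPM in the early libraries and at 16.9 and 20.9 CPM in late K12, then 23.1 and 23.1 in late tnaA, and 12.8 and 17.9 in late ahr-1. It rose by 4.13 ± 0.20 on K12 and 4.08 ± 0.22 on tnaA. The relative of fly DHR78, nhr-41, rose by 0.76 ± 0.14 and 0.97 ± 0.16. NHR-23, the worm relative of DHR3 and ROR, is needed for moulting. Its gene went the other way, from 67.9 to 74.1 CPM early to 58.1 and 52.8 in late K12 and 58.4 and 46.0 in late tnaA, with changes of -0.38 ± 0.08 (adjusted p = 0.00124) and -0.41 ± 0.09 (adjusted p = 0.00152) that took the opposite sign with library size alone (0.040 and 0.065). Of these 4 genes, nhr-25 alone was called in late K12 against tnaA and in ahr-1 against late N2. Of 9 epidermis markers, 5 rose on each of the bacteria, and 2 fell on K12 and 1 on tnaA. Their summed level was lower in late worms, at 1427 to 1643 CPM early, 346 to 388 CPM in late N2 and 271 to 284 CPM in late ahr-1. Their part in the changes of these 4 genes was not tested.

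Receptors of fat use and diet changed in both directions with age. Of 11 listed and tested, 4 rose and 5 fell on K12, with a median log2 fold change of 0.18, and 5 rose and 3 fell on tnaA, with a median of 0.22. The counts on K12 are near the 32.9% rising and 36.7% falling of all genes. NHR-114 is an intestinal receptor through which diet bears on fertility. Its gene was read at 67.7, 62.2 and 53.9 CPM in early K12, 47.7 and 41.9 in early tnaA, 10.98 and 10.4 in late K12, then 11.1 and 11.9 in late tnaA, and 12.0 and 11.6 in late ahr-1. Early libraries were all far above late ones, and the late groups lay close together. It fell by 2.52 on K12 (SE 0.11, adjusted p = 3.36e-10) and by 1.97 on tnaA (SE 0.12, adjusted p = 7.73e-09) on the log2 scale.

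NHR-68 and NHR-10 together switch on the propionate shunt, a route of propionate breakdown used when vitamin B12 is low. The level of nhr-68 was 34.1 to 36.5 CPM in the early libraries and 5.76 to 7.93 CPM in the late ones, and it fell by 2.39 (SE 0.11) on K12 and by 2.28 (SE 0.12) on tnaA. In contrast nhr-10 rose, by 0.27 ± 0.08 on K12 and 0.78 ± 0.09 on tnaA, from 25.6 to 30.2 CPM early to 35.8 and 34.1 CPM in late K12 and 46.9 and 44.8 in late tnaA, and was lower on K12 in late worms (-0.40 ± 0.09, adjusted p = 0.0161). The 2 partners therefore moved in opposite directions with age. Of the shunt's genes, acdh-1, ech-6 and alh-8 were found and tested, and all 3 fell with age on both bacteria. For acdh-1, a dehydrogenase often used as a reporter of this route, the level was 614 to 808 CPM early, 4.75 and 24.7 CPM in late K12, then 1.12 and 1.24 in late tnaA, and 1.09 and 2.51 in late ahr-1. It was higher on K12 than on tnaA in late worms (log2 fold change 3.63 ± 0.79, adjusted p = 0.0161), with the late K12 libraries far apart from each other.

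Around nhr-49, which rose by 0.56 ± 0.05 on K12 and 0.85 ± 0.05 on tnaA, the listed partners differed. The desaturase regulator nhr-80 fell by 0.68 (SE 0.20) and by 0.88 (SE 0.22). Of the NHR-49 partners, nhr-66 and nhr-13 fell on K12, by 0.21 (SE 0.08, adjusted p = 0.0285) and by 0.33 (SE 0.11, adjusted p = 0.0146), and were not called on tnaA, at -0.15 and -0.18. Both took the opposite sign with library size alone on both bacteria. The gene nhr-62, needed for the long life of diet-restricted worms, rose by 1.0 ± 0.17 and 1.66 ± 0.20. Of the genes that NHR-49 regulates, 7 of 8 were found, and 3 rose and 3 fell with age on each of the bacteria. The acyl-CoA synthetase acs-2 rose by 4.13 ± 0.13 and 4.05 ± 0.15, the flavin monooxygenase fmo-2 by 2.91 ± 0.16 and 3.9 ± 0.20, and the stearoyl-CoA desaturase fat-7 fell by 3.88 (SE 0.25) and by 4.80 (SE 0.29). In late K12 against tnaA these 3 genes were not called, at 0.06 ± 0.11, -0.28 ± 0.14 and 0.49 ± 0.44.

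Of 7 receptors of the xenobiotic and pathogen response, 3 rose and 2 fell on K12, and 4 rose and 2 fell on tnaA. Over all genes 32.9% rose and 36.7% fell on K12, and 35.6 and 36.3% on tnaA, and nothing particular to these 7 genes is read from the counts. NHR-8, a relative of DAF-12 that acts in cholesterol balance and toxin resistance, had a gene level of 16.4 to 22.1 CPM early and 5.56 to 9.60 CPM late. It fell by 1.36 (SE 0.15) on K12 and by 1.59 (SE 0.17) on tnaA, and nhr-176, which mediates the response to the drug thiabendazole, fell by 1.60 (SE 0.29) and by 1.62 (SE 0.31). All 3 detoxification genes listed with these receptors fell as well: the cytochrome P450 gene cyp-35D1 by 2.25 (SE 0.38) and by 2.03 (SE 0.38), cyp-14A2 by 2.79 and by 2.07, and the transporter gene pgp-14 by 0.63 and by 1.52. In the other direction nhr-14, a repressor of iron uptake genes, rose by 1.72 ± 0.10 and 1.43 ± 0.11, and nhr-45 by 1.33 ± 0.10 and 1.28 ± 0.11. NHR-86, which senses a bacterial metabolite in the gut, had a gene that was not called with age, at 0.20 ± 0.10 (adjusted p = 0.0828) and 0.25 ± 0.11 (adjusted p = 0.0589), and the 3 immune genes listed for it were not found by name. From this list nhr-112 alone was lower on K12 in late worms, at 6.58 and 5.39 CPM against 12.1 and 10.7 CPM (-0.93 ± 0.20, adjusted p = 0.0152).

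Of 6 developmental receptors, 4 rose and 1 fell with age on K12, and 5 rose on tnaA, where nhr-2 was not called. Over the family 54.6% rose on K12 and 62.2% on tnaA, and over all genes 32.9 and 35.6%. Falls on K12 were called for 10.7% of the family and 36.7% of all genes. Nothing particular to these 6 genes is read from the counts. The gene nhr-67, the relative of Tailless, acts in the anchor cell of the gonad. It was at 0.333, 0.881 and 2.33 CPM in early K12, 1.09 and 0.897 in early tnaA, 14.9 and 15.6 in late K12, then 22.6 and 26.7 in late tnaA, and 25.6 and 14.3 in late ahr-1. It rose by 3.66 ± 0.37 on K12 and 4.61 ± 0.43 on tnaA, with early K12 replicate 3, a library rich in sperm markers, the highest of the early ones. NHR-6, the worm NR4A receptor, is needed to build the spermatheca, and its gene rose by 1.73 ± 0.13 and 1.5 ± 0.14. The gene nhr-2, which acts in the early embryo, was the 1 called lower on K12, at -0.22 ± 0.09 (adjusted p = 0.0486, 0.19 with library size alone). On K12 nhr-40 was not called.

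The list of receptors with conserved counterparts in other animals had 10 of 11 members tested, of which 7 rose and 2 fell with age on both K12 and tnaA. On K12, 54.6% of the family rose and 10.7% fell, and 62.2 and 6.63% on tnaA. Over all genes these shares were 32.9 and 36.7% on K12, and 35.6 and 36.3% on tnaA. Nothing particular to conserved receptors is read from the counts. The risers beyond those named above were nhr-48, a relative of DAF-12, at 0.72 ± 0.08 and 1.07 ± 0.09, and nhr-91, the relative of GCNF, at 2.31 ± 0.23 and 2.99 ± 0.27. The list's untested member, nhr-111, had at most 5 reads in a library, and nhr-239 was not called. In late K12 against tnaA the 5 lists had 2 of 10 (conserved), 2 of 11 (fat and diet), 1 of 7 (xenobiotic), 1 of 4 (moulting) and 0 of 6 (development) members lower, beside 13.3% of the family and 4.27% of all genes; some genes are in more than 1 list.

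**Figure D5:**
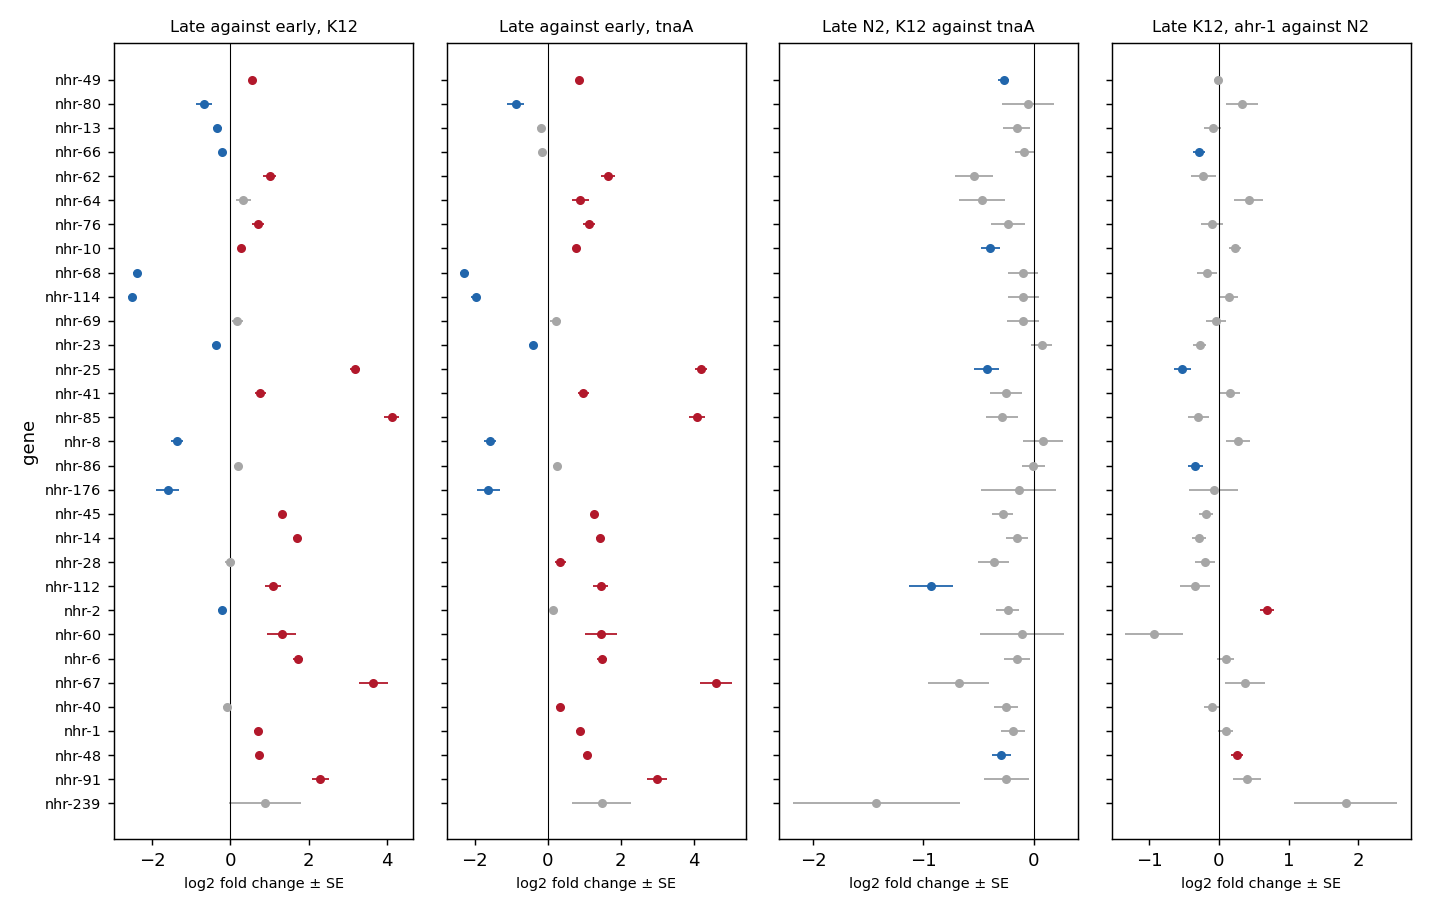
Log2 fold changes with SE (x axis) of the nhr genes in the role lists (y axis) for ageing on K12 and on tnaA, late K12 against tnaA, and late ahr-1 against N2 on K12 (panels, each with its own scale), in red where called higher, blue where called lower and grey where not called. Ageing changes run from -2.52 for nhr-114 to 4.13 for nhr-85 on K12, while the called differences between late groups lie within 1 log2 unit.

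Many further changes with age came from outside these lists. The smallest p on K12 among risers belonged to nhr-11, read at 5.75 to 6.93 CPM early and 36.2 to 61.7 CPM late, which rose by 3.02 ± 0.13 on K12 and 3.14 ± 0.14 on tnaA. The gene nhr-150 was nearly silent early, at 0.0775 to 0.416 CPM, and was read at 9.55 and 13.3 CPM in late K12, then 18.9 and 15.2 in late tnaA, and 11.7 and 10.8 in late ahr-1. It rose by 5.23 ± 0.30 and 6.37 ± 0.37. The gene nhr-154 rose by 2.44 ± 0.12 and 3.13 ± 0.13, and nhr-3 by 2.04 ± 0.09 and 2.49 ± 0.10. Fallers outside the lists included nhr-74, at 2.08 to 2.96 CPM in early K12 and 0.400 and 0.908 CPM in late K12, with changes of -1.92 ± 0.41 on K12 and, with tnaA as the food, -1.04 ± 0.45 (adjusted p = 0.0496). Levels of nhr-53 went from 3.81 to 4.65 CPM in early K12 to 1.72 and 1.51 CPM in late K12 (-1.40 ± 0.26), and the change on tnaA was not called (-0.48 ± 0.27). For nhr-101 the changes were -1.06 ± 0.15 and -0.43 ± 0.16, the second with the opposite sign under library size alone (0.039). For nhr-71 they were -0.38 ± 0.07 and -0.50 ± 0.08, the first with the opposite sign under library size alone (0.041). Of 128 ageing calls on K12, 102 held without each library in turn, and of 135 on tnaA, 110 did.

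Early worms on the 2 bacteria did not differ in a called nhr gene. By edgeR 0 of 196 members were higher and 0 lower on K12, against 0.0132 and 0.0529% of all genes. An unadjusted p under 0.05 was reached by 8 upward and 10 downward, while DESeq2 also called 0. The member with the smallest p was nhr-114, at 61.3 ± 6.95 CPM (SD, n = 3) on K12 and 44.8 ± 4.11 CPM (SD, n = 2) on tnaA. Its libraries did not overlap, its log2 fold change was 0.45 ± 0.09 (adjusted p = 0.113), and it was called without early K12 replicate 3, at 0.53 (adjusted p = 0.0277). In late worms the 2 bacteria did not differ in nhr-114 by call, at -0.10 ± 0.14 (adjusted p = 0.715).

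The difference between the ageing changes on K12 and on tnaA was called for 9 members, all with a smaller rise on K12, or 4.59% of those tested. Of all genes, 0.971% were called in this direction and 1.43% in the other, in which 0 members were called by edgeR or DESeq2 and 0 at an unadjusted p under 0.05, against 41 lower. The 9 were nhr-137, nhr-203, nhr-17, nhr-21, nhr-136, nhr-129, nhr-58, nhr-25 and nhr-10, and none of these calls held without each library in turn. The count ranged from 0 without late tnaA replicate 2 to 14 without late ahr-1 replicate 1. Of the 9, nhr-137 had the smallest p, at -1.07 ± 0.13 (adjusted p = 0.00641).

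The comparison of late ahr-1 mutants with late N2 on K12 asks what the loss of the aryl hydrocarbon receptor changes in old worms. Calls went both ways in the family: 16 members were higher in the mutant and 12 lower, or 8.16 and 6.12% of those tested, against 12.3 and 12.2% of all genes. The median was -0.05 over members and 0 over all genes. For 52 members (26.5%) both mutant libraries lay above both N2 libraries and for 64 (32.7%) below, against 32.1% of all genes in each direction. With DESeq2's size factors in edgeR, 13 members were higher and 16 lower, so that 44.8% of the calls were higher in place of 57.1%. The counts rested on few libraries: without late K12 replicate 1 there were 1 higher and 3 lower, without late K12 replicate 3 there were 8 and 7, and without ahr-1 replicate 1 and 3 there were 6 and 9 higher. Sperm markers were higher in the mutant in 8 of 12 genes and germline and oocyte markers lower in 12 of 12. Zygotic embryo markers were higher in 2 of 7 genes. They summed to 18.4 and 18.8 CPM in the mutant, against 9.49 and 12.9 CPM in late N2 on K12. Of 10 neuron markers 1 was higher and 3 lower, of 10 muscle markers 3 were higher, and of 9 intestine markers 1 was higher. The part of these markers in the nhr differences was not tested.

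Among members higher in the mutant, nhr-2 had the smallest p. It was at 37.8 and 35.2 CPM in late ahr-1 and at 21.7 and 23.3 CPM in late N2 on K12, with 27.6 and 25.02 CPM in late tnaA and 23.2 to 28.3 CPM early. The mutant libraries lay above all 9 others, and the log2 fold change was 0.70 ± 0.10 (adjusted p = 5.60e-04). For nhr-65 the mutant had 10.02 and 9.82 CPM against 5.55 and 6.23 CPM (0.75 ± 0.15, adjusted p = 0.00362), also above all other libraries. Rises were also called for nhr-27, at 0.34 ± 0.08, and nhr-232, at 0.73 ± 0.17. At least 2-fold higher in the mutant were 2 members (1.02% of those tested, against 2.92% of all genes), nhr-110 at 1.06 ± 0.32 (adjusted p = 0.0289) and nhr-275 at 1.30 ± 0.40 (adjusted p = 0.0314), both read at under 5 CPM. At least 2-fold lower were 0 members, against 1.08% of all genes.

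Among members lower in the mutant, nhr-3 had the smallest p, at 44.8 and 37.4 CPM in the mutant against 64.4 and 62.1 CPM in late N2 on K12. Its log2 fold change was -0.63 ± 0.09 (adjusted p = 4.47e-04), and the mutant libraries lay between the early ones, at 13.9 to 16.3 CPM, and the late N2 ones. The moulting gene nhr-25 fell by 0.52 (SE 0.12, adjusted p = 0.00709), nhr-21 by 0.62 (SE 0.14, adjusted p = 0.00821) and nhr-97 by 0.30 (SE 0.07, adjusted p = 0.00889). The NHR-49 partner nhr-66 and the immune receptor nhr-86 were lower too, by -0.28 ± 0.09 and -0.33 ± 0.11. The calls of nhr-2, nhr-3 and nhr-137 held without each library in turn, and the other calls in this comparison were lost without at least 1. Of 9 epidermis markers, 4 were lower in the mutant.

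Nuclear receptors with names other than nhr gave values beside the family. The steroid receptor gene daf-12, which sets the choice between growth and dauer, was at 12.0 to 14.4 CPM early, 41.9 and 43.5 in late K12, then 54.5 and 52.4 in late tnaA and 33.5 and 29.7 in late ahr-1. It rose with age by 1.74 ± 0.09 and 2.00 ± 0.10, and was lower on K12 than on tnaA (-0.33 ± 0.09, adjusted p = 0.0316) and in ahr-1 (-0.44 ± 0.09, adjusted p = 0.00411). The gene sex-1, an X-chromosome counting factor, rose by 1.65 ± 0.08 and 2.14 ± 0.09, was lower on K12 (-0.36 ± 0.08, adjusted p = 0.0205) and higher in ahr-1 (0.54 ± 0.08, adjusted p = 7.16e-04). Of the 4 tested receptors with other names, 2 rose with age on K12 and 3 on tnaA. Of the tested genes that make the DAF-12 ligand, dhs-16 rose by 4.93 ± 0.36 and 4.57 ± 0.38, whereas the oxygenase gene daf-36 fell by 3.42 (SE 0.21) and by 4.00 (SE 0.25). The gene daf-9, also tested, was called higher with age on tnaA alone. Its mean level was low, at 0.822 CPM early and 1.15 CPM late on K12, and 0.553 and 1.55 CPM on tnaA. The DAF-12 cofactor gene din-1 rose by 1.88 ± 0.07 and 2.43 ± 0.08 and was lower on K12 in late worms (-0.37 ± 0.08, adjusted p = 0.0138). Of 4 coregulators, 3 rose with age on both bacteria, and the Mediator subunit gene mdt-15, a partner of NHR-49, was not called in any of the 6 comparisons.

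By the Pearson correlation of log levels over all 11 libraries, a description with no test, the genes most like nhr-155 were nhr-137 (0.980), nhr-98 (0.959), dhhc-9 (0.953), gst-25 (0.945) and rho-1 (0.939). Those most like nhr-136 were str-143 (0.977), T07D1.2 (0.977), pssy-1 (0.975), B0353.1 (0.972) and F39B2.8 (0.971). All 11 libraries share the split by age, so that many genes correlate. For nhr-155 the values rest largely on the 2 late tnaA libraries, at 7.19 and 8.44 CPM, for which it was singled out. All other libraries had at most 0.286 CPM of it. Levels of gst-25 and str-143 were low, with highest group means of 1.37 and 0.928 CPM. The members nhr-137 and nhr-98 had their highest level in late tnaA, at 40.1 ± 2.44 and 6.88 ± 0.470 CPM (SD, n = 2), against 19.9 ± 0.586 and 3.93 ± 0.342 CPM (SD, n = 2) in late K12.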

How the data were processed

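The 11 libraries were grouped by their titles. The authors deposited a table of raw gene counts per library. The submitters' processing notes name HTSeq 0.6.1p2, STAR and Trim Galore, and no source used here states settings, genome build or annotation. The authors also deposited 2 tables of log2 fold changes and adjusted p-values from DESeq2 for the late comparisons. Their 8 columns of normalised values per sample were not used here.

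From the counts, genes passing filterByExpr by group (minimum count 10) were scaled by TMM and fitted together, with a mean per group, by the two-sided quasi-likelihood test of edgeR 4.0.16 in R 4.3.3, with 6 residual degrees of freedom. In each of 6 comparisons, p-values of the 15133 genes tested were adjusted by Benjamini-Hochberg, and only nhr genes are described. Reads outside genes, 6.14 to 14.8% of a library's total, stayed out. Their share was 6.14 to 7.19% early, 8.27 to 8.56% in late K12, 9.265 to 14.8% in late tnaA and 11.6 to 13.8% in late ahr-1. The part of this difference in the nhr results was not tested. A log2 fold change carries its SE, and CPM values their SD. A fold against a group at 0 reads is set against 3 counts over that group and leaves out the counting error of the other group. A ratio with at most 3 reads carries its exact 95% interval. Intervals and floors cover counting error only, and replicates varied more, with a chi-square over degrees of freedom of 2.90 to 5.42.

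Levels per kb used Ensembl 115 exon lengths. The members, gene lists and single genes were chosen with earlier results of these data known. Genes named were nhr-155 and nhr-136, the role lists, and in each comparison up to 10 called members per direction with the smallest p, no overlap between groups and at least 1 CPM in the higher group; others were chosen after their values were seen. The role lists and markers were written from general knowledge. Alternatives were other size factors, library size alone, no filter, DESeq2 1.42.0, the compared groups alone, a replicate block, leaving out 2 early libraries rich in sperm markers, and leaving out each library. The test was checked on simulated data.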

Additional observations from a re-analysis of the deposited data

Results flagged for a closer look

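The 9 nhr genes below were set aside because their change with age differed between the bacteria by a test of the difference itself, the interaction of age and strain in edgeR's quasi-likelihood test. On the log2 scale, the ageing change on K12 minus that on tnaA was -1.07 for nhr-137, -0.957 for nhr-203, -0.701 for nhr-17, -0.922 for nhr-21 and -1.14 for nhr-136. It was -1.19 for nhr-129, -1.36 for nhr-58, -1.01 for the moulting receptor gene nhr-25 and -0.502 for the propionate shunt regulator gene nhr-10. All 9 rose more on tnaA than on K12, and nhr-17 was called with age on tnaA alone (0.91 against 0.21 on K12). For nhr-58 and nhr-203 early levels were also lower on tnaA, at 1.71 and 1.63 CPM against 2.57 to 3.00 CPM for nhr-58, and at 4.57 and 4.57 CPM against 6.54 to 7.53 CPM for nhr-203, though neither early difference was called (adjusted p = 0.419 and 0.144). Early tnaA libraries also lay below the early K12 ones for nhr-17, at 52.8 and 50.4 CPM against 56.3 to 61.2 CPM. The same held for nhr-21 (11.2 and 12.5 against 13.15 to 16.6 CPM) and nhr-25 (2.56 and 2.94 against 3.08 to 5.29 CPM), with no call. For nhr-10, nhr-129, nhr-136 and nhr-137 the early libraries overlapped. Every one of these 9 calls was lost without at least 1 of the 11 libraries, and the count ran from 0 to 14 over those fits. Groups of 2 or 3 libraries are too small for Dixon's test of an outlying library.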

How the results depend on the processing

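Counts of members called lower in late K12 against tnaA moved from 26 to 13 with DESeq2, in which 54 members had an adjusted p, and to between 3 and 30 without each library in turn. In late ahr-1 against late N2 the 16 higher became 3 with DESeq2 and 1 to 19 without each library, and the 12 lower became 3 to 14. With library size alone the members falling with age became 9 on K12 and 4 on tnaA, and with DESeq2 13 and 7. In early worms 1 member, nhr-114, was called higher on K12 with no filter, without the 2 early libraries rich in sperm markers, and without early K12 replicate 3 (range 0 to 1). The 9 interaction calls became 14 with no filter, 15 with the compared groups alone, 2 without those 2 early libraries, and 0 to 14 without each library, where nhr-136 ran from -1.51 to -0.84. With library size alone the ageing change went from negative to positive for 31 of 196 members on K12 and 22 on tnaA, while 18.9 and 16.9% of all genes changed sign. Among these members on K12 were nhr-2 (0.19), nhr-23 (0.040), nhr-66 (0.21), nhr-5 (0.15), nhr-13 (0.085), nhr-71 (0.041), nhr-28 (0.42) and nhr-40 (0.33), and on tnaA nhr-23 (0.065), nhr-5 (0.11), nhr-101 (0.039), nhr-13 (0.29) and nhr-66 (0.32). Without TMM every ageing value shifts up by the ratio of the scaling factors; the causes of the other changes were not tested.

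Replicate numbers gave no sign of pairing: over 16 pairs with the same number, correlations of deviations ran from -0.55 to 0.15, and 2 were over 0.1. Those 2 are the same value, for early and late tnaA, because deviations in a group of 2 libraries mirror each other. The 16 values are therefore not independent. With the replicate number as a block, 4 members were lower in late K12 against tnaA, 2 interaction calls were left, and the interaction of nhr-136 was -1.09 (adjusted p = 0.122).

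With 2 libraries in 4 of the groups, counts of calls depend on single libraries. Of the 276 members, 34 had under 10 reads over all libraries, too few to compare.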

Other observations

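The authors' deposited table for late N2 on K12 and on tnaA lists 17 nhr genes, all with a negative log2 fold change for K12, from -0.97 for nhr-136 to -0.21 for nhr-49, and 16 of them were also called lower from the counts here. The remaining gene, nhr-67, was at -0.48 in the authors' deposited table (adjusted p = 0.00734) and at -0.68 ± 0.28 here (adjusted p = 0.137). The gene nhr-155 is not among the 17 listed by the authors, and DESeq2 here gave it no adjusted p in this comparison. The authors' deposited table for late ahr-1 and late N2 on K12 lists 9 nhr genes, 4 positive and 5 negative, all of which were also called here. Among them nhr-3 was at -0.58 (adjusted p = 6.5e-05) and nhr-2 at 0.62 (adjusted p = 2.78e-04) in the authors' deposited table.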
